A study of Mus musculus with 9 samples.

Results

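The 8 genes of the CCT chaperonin, *Tcp1* and *Cct2* to *Cct8* with *Cct6a* as the zeta subunit, were described across the 9 RNA-seq libraries of a study of mouse naïve and primed pluripotency. They were taken as the entries of the count file whose Ensembl IDs carry these 8 symbols, and make 8 of the 54232 genes listed. The naïve cells were mESCs of a C57 x CBA cross with a GFP transgene under the distal *Oct4* promoter. They were grown in serum medium with LIF, and the primed cells were mEpiSCs converted from them and grown with bFGF and Activin A. Both were kept on mitomycin C-inactivated MEFs as feeder cells, and 2 libraries of each state were made at P5 and at P15. A further library came from MEFs alone, which has no replicate and entered no test. The RNA-seq covers 1 cell line. The libraries of a group are biological repeats by the study's own description, so p-values measure the spread between repeats of this line.

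CCT, also called TRiC, is the cytosolic chaperonin of eukaryotes, a pair of stacked rings in which each ring holds 1 copy of each of the 8 related subunits. Newly made actin and tubulin enter its cavity and are folded there with ATP, as are a number of WD40-repeat proteins, among them the cell cycle activator *Cdc20* and the telomerase cofactor encoded by *Wrap53*. Prefoldin hands unfolded actin and tubulin to the rings, and phosducin-like proteins act as cofactors. The subunits take fixed places in the ring, and each is essential for growth in yeast.

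All 8 subunits were lower in primed than in naïve cells at P5, by 1.40-fold for *Tcp1* to 1.97-fold for *Cct3*, and all passed the test, against 31.1% of all genes called lower. At P15 the difference was smaller, and 7 of the 8 passed the test, with *Cct5* the exception, against 28.4% of genes called lower. Between the passages the primed cells rose in 7 of the 8 subunits, with *Cct4* the exception, against 22.4% of genes called higher. In naïve cells none passed edgeR's test, where 11.9% of genes were called, and 2 had an unadjusted p under 0.05. MEFs had the lowest level of every subunit.

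The subunit genes lie on separate chromosomes of GRCm38. These are chromosome 17 for *Tcp1* (12915701 to 12925067), 10 for *Cct2* (117051001 to 117063814), 3 for *Cct3* (88297116 to 88321767) and 11 for *Cct4* (22990519 to 23003780). The others are chromosome 15 for *Cct5* (31590800 to 31601804), 5 for *Cct6a* (129786998 to 129846371), 6 for *Cct7* (85451514 to 85468475) and 16 for *Cct8* (87483326 to 87495873). GENCODE M21 lists *Cct6a* as a processed transcript and the other 7 as protein-coding. Of the 8 genes, 7 matched an entry in the RefSeq promoter table (GRCm38.p6, the 250 bases before a transcript start), and *Cct4* is named only. The promoters of 4 subunits are shown since at P5 primed cells had less of all 8 transcripts, though by unequal amounts. *Cct3* had the largest difference at P5, *Cct7* the most CCAAT motifs, *Cct8* an ETS motif, and *Cct5* the smallest difference at P15 and none of the motifs searched. Capitals mark CCAAT or its reverse complement in *Cct3* and *Cct7*, and CCGGAAG in *Cct8*. The regions are chr3:88296885-88297134 (plus strand), chr6:85451255-85451504 (plus strand), chr16:87495870-87496119 (minus strand) and chr15:31601847-31602096 (minus strand).
Cct3: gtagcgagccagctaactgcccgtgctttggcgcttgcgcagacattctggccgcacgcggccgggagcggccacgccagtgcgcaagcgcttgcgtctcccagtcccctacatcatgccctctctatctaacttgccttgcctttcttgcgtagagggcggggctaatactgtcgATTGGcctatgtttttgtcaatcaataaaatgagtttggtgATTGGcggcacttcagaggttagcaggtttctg
Cct7: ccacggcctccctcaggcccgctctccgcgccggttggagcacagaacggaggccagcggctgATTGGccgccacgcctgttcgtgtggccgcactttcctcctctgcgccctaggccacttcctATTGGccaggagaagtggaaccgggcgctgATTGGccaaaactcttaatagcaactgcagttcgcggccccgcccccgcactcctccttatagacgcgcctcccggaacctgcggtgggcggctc
Cct8: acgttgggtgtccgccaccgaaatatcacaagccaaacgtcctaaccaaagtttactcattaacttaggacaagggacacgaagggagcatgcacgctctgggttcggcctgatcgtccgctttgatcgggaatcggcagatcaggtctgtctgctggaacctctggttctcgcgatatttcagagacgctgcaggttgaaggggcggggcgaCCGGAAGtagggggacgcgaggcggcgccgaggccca
Cct5: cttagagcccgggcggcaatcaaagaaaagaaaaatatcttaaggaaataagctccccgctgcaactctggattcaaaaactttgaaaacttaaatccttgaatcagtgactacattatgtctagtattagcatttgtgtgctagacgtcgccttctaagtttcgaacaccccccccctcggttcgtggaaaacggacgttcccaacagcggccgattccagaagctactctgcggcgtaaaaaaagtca

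Both strands of the promoters were searched for 6 motifs, and no subunit promoter held hits of more than 1 of them. CCAAT, the NF-Y box, was in 33.8% of 32851 promoters and in 4 of the 7 subunit genes, namely *Tcp1* (1 copy), *Cct3* and *Cct6a* (2 copies each) and *Cct7* (3 copies). CCGGAAG, an ETS motif, was in 6.91% of promoters and in *Cct2* and *Cct8*. GAANNTTC, made of facing heat shock element units, was in 6.69% of promoters and in the further start listed for *Cct2*. CACGTG (the E-box, 6.02% of promoters), TGACGTCA (the CRE, 1.55%) and the NRF1 motif (0.782%) were in none of the 7. The percentages are per promoter, whereas the subunits are counted per gene, and *Cct2* and *Cct5* each had a further start listed. No motif was thus held by every subunit, and a match is a description of these letters only.

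The subunits were among the genes with the most reads. Their mean over the 8 naïve and primed libraries was 511 to 682 CPM after TMM scaling of the library sizes. This ranked them 173 to 254 of 16926 genes by CPM, without correction for transcript length. Total counts were 14378051 to 20985136 in these libraries and 25646547 in MEFs, and each subunit had at least 5698 counts in every library. Naïve markers (7 genes) summed to 1652 to 1945 CPM in naïve and 91.9 to 212 CPM in primed libraries, and primed markers (7 genes) to 49.6 to 74.7 and 770 to 850 CPM. Fibroblast markers (30 genes) were above 3 counts in every library, and their median level relative to MEFs was 17.2% and 17.6% in naïve P5, 15.3% and 14.1% in primed P5, 20.1% and 21.7% in naïve P15, and 25.2% and 24.8% in primed P15. Pluripotency markers (4 genes) summed to 1656 to 1672 CPM in naïve P5 and 646 to 647 CPM in primed P5. They summed to 1765 to 1773 CPM in naïve P15, 994 to 1037 CPM in primed P15 and 1.45 CPM in MEFs. In such bulk samples, fewer cells of a type and less RNA per cell cannot be told apart.

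The 8 subunits together gave 5449 and 5309 CPM in naïve P5 and 3353 and 3356 CPM in primed P5. They gave 5421 and 5388 CPM in naïve P15, 4243 and 4307 CPM in primed P15, and 2414 CPM in MEFs. As a share of the raw counts, these were 0.522% and 0.513%, 0.380% and 0.380%, 0.512% and 0.512%, 0.428% and 0.437%, and 0.221%. Primed P5 libraries thus held 62.4% and primed P15 libraries 79.5% of the mean summed level of naïve P5, and the naïve and primed libraries did not overlap at either passage.

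**Figure D1:**
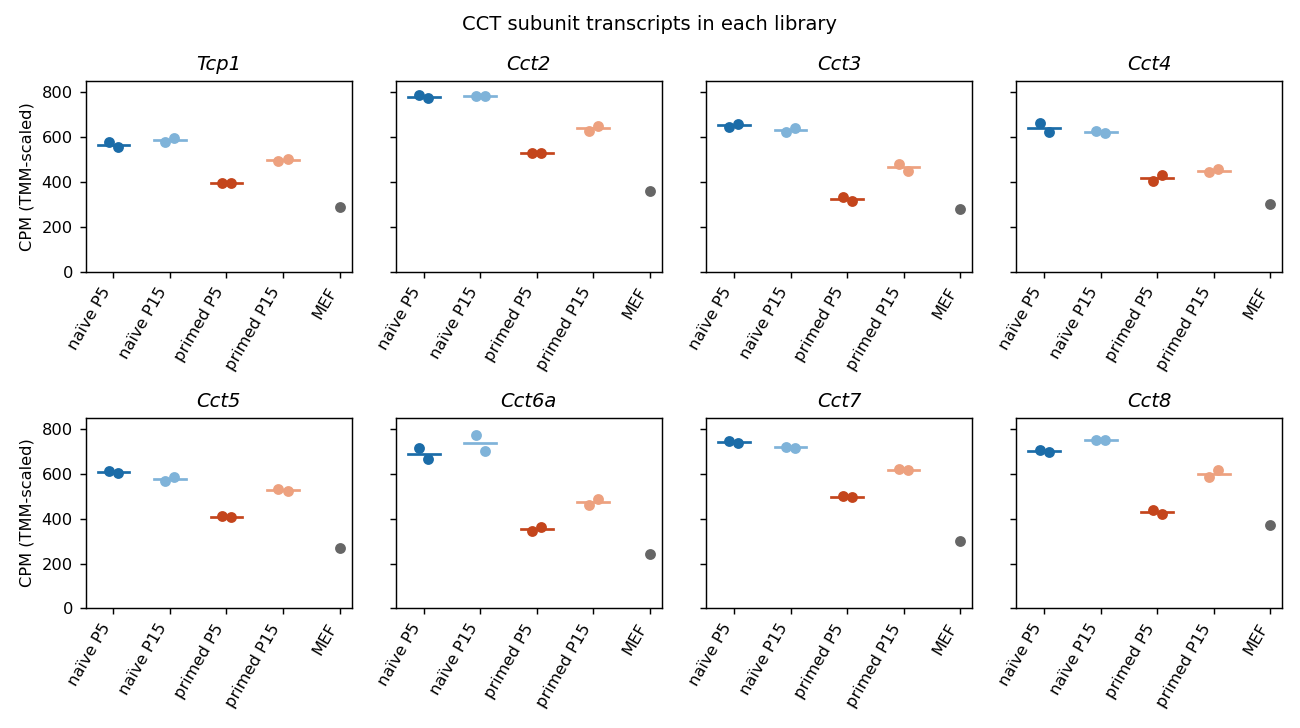
CPM of each CCT subunit transcript (vertical axis, from 0) in the 9 libraries, with a point per library and a line at the mean of each pair. Primed P5 libraries lie below both naïve groups for all 8 genes, primed P15 libraries lie between them and naïve libraries, and the MEF library is lowest.

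The first question was how the primed state differed from the naïve state at P5. *Cct3*, the gamma subunit, had 647 and 658 CPM in naïve libraries and 333 and 316 CPM in primed libraries. Its neighbour in the ring, the zeta subunit *Cct6a*, had 714 and 667 CPM against 346 and 363 CPM. In primed cells these 2 genes stood at 49.7% and 51.3% of their naïve level. The log2 fold changes were -0.98 ± 0.04 for *Cct3* and -0.93 ± 0.04 for *Cct6a* (SE, 2 libraries per group), with adjusted p of 1.93e-20 and 2.33e-19 by edgeR's quasi-likelihood test. *Cct8*, the theta subunit, had 706 and 696 CPM in naïve and 437 and 421 CPM in primed libraries. This was the next largest difference, a log2 fold change of -0.68 ± 0.03 with an adjusted p of 5.41e-17.

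The other 5 subunits differed by similar amounts. *Cct4*, the delta subunit, had 661 and 622 CPM in naïve and 404 and 429 CPM in primed libraries. *Cct7*, the eta subunit, had 746 and 736.5 CPM against 499.5 and 495 CPM. *Cct5*, the epsilon subunit, had 611 and 604 CPM against 411 and 408 CPM. In each of the 3 genes the libraries of a state lay far closer to each other than to those of the other state. *Cct2*, the beta subunit, had 787 and 772 CPM against 527 and 528 CPM. *Tcp1*, the alpha subunit and the gene that gave the complex its name, had 577 and 555 CPM against 395.9 and 395.6 CPM. *Tcp1* was thus the subunit closest to its naïve level, at 69.9%. Log2 fold changes were -0.59 for *Cct4*, -0.54 for *Cct7*, -0.54 for *Cct5*, -0.53 for *Cct2* and -0.48 for *Tcp1*, each with an SE of 0.03 or 0.04 and adjusted p between 4.28e-15 and 1.83e-13.

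At P5, 8 of 8 subunits passed an adjusted p of 0.01 with lower levels in primed cells, where 31.1% of the 16482 genes tested were called lower and 31.2% higher. The median log2 fold change was -0.57 over the subunits and 0.01 over all genes. In edgeR's fit of the 4 libraries none of the 8 reached a fold change of at least 2, the further limit that the study's methods use. With lower levels, 8.85% of genes passed this limit. *Cct3* lay close to it with a log2 fold change of -0.98, and by mean CPM its primed level was 49.7% of the naïve one. With each library left out in turn, *Cct3* ranged from -1.01 to -0.91, and the lowest value of *Cct6a* also passed a 2-fold difference. DESeq2 called 8 of 8. With library size alone, without TMM, all 8 were still called, but the subunit median was -0.36, since this scaling raised the median of all genes by 0.20. In all 8, every primed library was below every naïve library, which held for 43.6% of genes.

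At P15 the same comparison gave smaller differences. *Cct6a* had 772 and 703 CPM in naïve and 459.6 and 489 CPM in primed libraries. *Cct4* had 628 and 616 CPM against 442 and 459 CPM, and *Cct3* had 621 and 642 CPM against 479 and 451 CPM. These were the 3 subunits with the largest differences, with log2 fold changes of -0.65 ± 0.06, -0.48 ± 0.05 and -0.45 ± 0.06 and adjusted p of 2.15e-12, 1.24e-09 and 4.64e-09. *Cct8* had 750.2 and 749 CPM in naïve and 584 and 616 CPM in primed libraries, and *Cct2* had 781.3 and 781.2 CPM against 629 and 652 CPM. *Tcp1* had 579 and 595 CPM against 493.5 and 500.5 CPM, and *Cct7* had 721 and 716 CPM against 622 and 615 CPM. These 4 subunits stood at 80.02% to 86.1% of their naïve level, with log2 fold changes of -0.33, -0.30, -0.25 and -0.23, each with an SE of 0.05, and adjusted p from 1.45e-06 to 3.14e-04. *Cct5* had 567 and 585 CPM in naïve and 534.5 and 525 CPM in primed libraries, a log2 fold change of -0.13 ± 0.05 with an adjusted p of 0.0303. The primed libraries of *Cct5* were still below the naïve ones, at 91.9% of the mean, and it passed the threshold only in a fit of all 8 libraries and in a fit that paired the replicate numbers crosswise.

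At P15, 7 of 8 subunits were thus called lower, where 28.4% of the 15733 genes tested were called lower and 28.2% higher. The median log2 fold change was -0.32 over the subunits and close to 0 over all genes (-0.0039). DESeq2 also called 7, but library size alone gave 5, with a median of -0.21, and *Tcp1* (-0.15) and *Cct7* (-0.12) no longer passed. Without the second primed P15 library, *Cct7* had a log2 fold change of -0.19 and did not pass. After subtraction of the feeder share, taken as the median marker ratio times the MEF counts, 8 subunits were called lower at P5 (median -0.63) and 6 at P15 (median -0.30), where the adjusted p of *Cct7* was 0.0123.

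**Figure D2:**
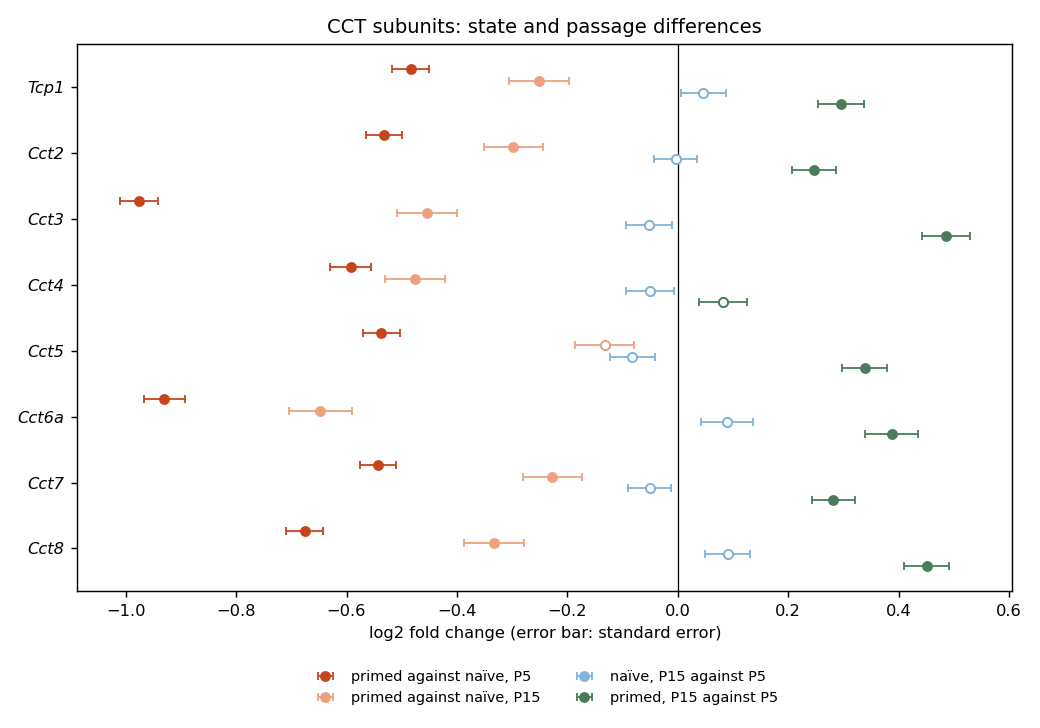
Log2 fold change (horizontal axis) of each CCT subunit in the 4 comparisons, with bars of 1 SE, filled where the adjusted p was under 0.01. Primed against naïve differences are all below 0 and are smaller at P15 than at P5, and primed cells at P15 are above primed cells at P5, while the naïve passages stay within 0.1 of each other.

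The passages were then compared within each state, over 16926 genes in 1 fit of the 8 libraries. These comparisons share libraries with those between the states, so their values are given side by side. In primed cells, *Cct3* went from 333 and 316 CPM at P5 to 479 and 451 CPM at P15, a log2 fold change of 0.49 ± 0.04 and an adjusted p of 5.15e-11. *Cct8* rose by 0.45 ± 0.04, *Cct6a* by 0.39 ± 0.05, *Cct5* by 0.34 ± 0.04, *Tcp1* by 0.30 ± 0.04, *Cct7* by 0.28 ± 0.04 and *Cct2* by 0.25 ± 0.04, with adjusted p from 9.12e-11 to 3.51e-06. *Cct4* had 404 and 429 CPM at P5 and 442 and 459 CPM at P15, a log2 fold change of 0.08 ± 0.04 with an adjusted p of 0.114, and of -0.05 with library size alone. The *Cct4* libraries did not overlap, but the difference was of the size of the gap between the P5 libraries. In total 7 of 8 subunits were called higher, where 22.4% of genes were called higher, with a median of 0.32 against -0.02 over all genes. With library size alone 6 were called higher, the median was 0.19 and *Cct2* (0.12) no longer passed, and with the feeder share subtracted 7 were called and the median was 0.45. Fibroblast markers summed to 6805 to 6953 CPM in primed P5 and to 15672 to 16271 CPM in primed P15 libraries, and their part in the result was not tested beyond this subtraction.

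In naïve cells, log2 fold changes between P5 and P15 were between -0.08 (*Cct5*) and 0.09 (*Cct8*), with SE of 0.04 to 0.05. No subunit passed an adjusted p of 0.01 by edgeR or DESeq2, and 2 had an unadjusted p under 0.05 by edgeR, where 11.9% of genes were called. The adjusted p ranged from 0.125 to 0.967. A p above the threshold does not show that the levels were equal, but changes were at most 6.95% of the mean at P5.

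The change in the state difference from P5 to P15 was tested as an interaction in the same fit. It was 0.54 ± 0.06 on the log2 scale for *Cct3* and 0.42 ± 0.06 for *Cct5*, with adjusted p of 1.83e-08 and 5.80e-07. For *Cct8*, *Cct7*, *Cct6a*, *Cct2* and *Tcp1* it was 0.36, 0.33, 0.30, 0.25 and 0.25, with adjusted p up to 0.00103. For *Cct4* it was 0.13 ± 0.06 with an adjusted p of 0.0960. So 7 of 8 subunits were called, all towards a smaller difference at P15, where 13.3% of genes were called in that direction. With library size alone 4 were called, with a median of 0.20 against 0.32, and *Tcp1* (0.14), *Cct2* (0.14) and *Cct6a* (0.19) no longer passed. Without the first primed P5 library 4 were called, and *Tcp1* (0.22), *Cct2* (0.22) and *Cct6a* (0.24) no longer passed. Without the second, *Tcp1* (0.22) and *Cct2* (0.23) did not pass, and without the first naïve P5 library *Tcp1* (0.22) and *Cct6a* (0.25) did not.

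The subunits did not move as a block of fixed proportions. Each gene was set against the mean of the 8 in its library on the log2 scale, and the mean of the naïve P5 libraries was taken as 0. *Cct3* then stood at -0.28 and -0.36 in primed P5 and at -0.10 and -0.21 in primed P15, with -0.08 and -0.02 in naïve P15. *Cct6a* stood at -0.31 and -0.24 in primed P5, at -0.24 and -0.17 in primed P15 and at -0.34 in MEFs, but at 0.16 and 0.02 in naïve P15. Both were below their naïve share in all 4 primed libraries. *Cct4* changed sides, with 0.02 and 0.11 in primed P5 and -0.19 and -0.16 in primed P15. *Tcp1* was above its naïve P5 share in all 4 primed libraries, at 0.15 to 0.18, and so was *Cct5*, at 0.12 to 0.16. These are descriptions of 2 libraries a group, with no test.

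**Figure D3:**
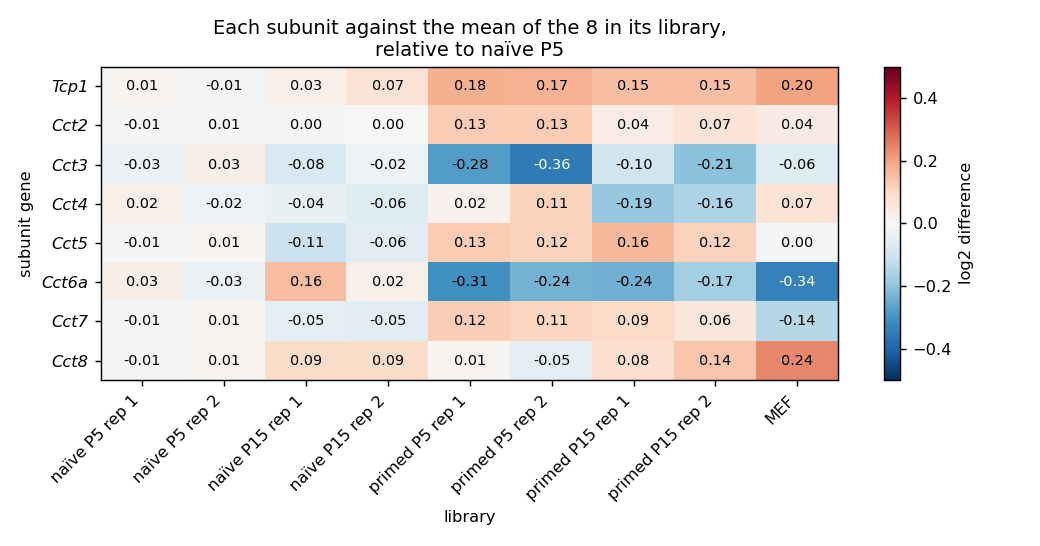
Log2 level of each CCT subunit minus the mean of the 8 in the same library, relative to naïve P5 (color and printed value), for the 9 libraries. *Cct3* and *Cct6a* are the lowest in primed P5, and *Cct4* turns from values above 0 in primed P5 to values below 0 in primed P15.

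Between genes, levels were compared per kilobase of the principal transcript. *Cct2* had the highest level per kilobase in each of the 9 libraries, with a mean of 398 CPM per kilobase in naïve P5 and 269 in primed P5. The lowest was *Tcp1* in naïve libraries (231 CPM per kilobase at P5), *Cct6a* in primed P5 libraries and MEFs (144.5 and 99.5) and *Cct4* in primed P15 libraries (181.5). The highest and lowest subunits differed by 1.64-fold to 1.91-fold within a library. This order depends on the length taken for each gene. With the length of all exons *Cct2* was again the highest in every group, but *Cct3* was the lowest in every group, and the 2 differed by 2.98-fold to 4.05-fold.

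MEFs, with 1 library, had 244 CPM of *Cct6a* to 371 CPM of *Cct8*. This was 33.1% to 52.9% of the naïve and 48.5% to 86.4% of the primed levels. *Cct3* and *Cct8* in primed P5 cells came closest to the MEF level, which was 86.0% and 86.4% of theirs. The order of the summed levels was thus naïve at either passage, primed P15, primed P5 and MEFs, with no overlap between libraries apart from the naïve passages.

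Some of the subunit genes share bases with a neighbour on the other strand. Since how the authors' counting treated strand is not given in the sources used here, reads from shared exons cannot be told apart. *Psph*, which encodes the last enzyme of serine synthesis, starts 451 bp from *Cct6a* and shares 452 exon bases with it. It had 45.7 ± 1.4 CPM in naïve P5 and 14.6 ± 0.1 CPM in primed P5 cells (SD, n = 2), a log2 fold change of -1.61, and the value at P15 was -1.10. *Mrpl18*, a mitochondrial ribosomal protein gene, shares 141 exon bases with *Tcp1* and had log2 fold changes of -0.64 and -0.45. *Pradc1* shares 214 exon bases with *Cct7* and had log2 fold changes of -1.16 and -0.55. All 3 were called lower in primed cells at both passages, but *Pradc1* not at P15 by DESeq2 (-0.56) or without either primed P15 library (-0.48 and -0.56) or the second naïve one (-0.55). They had 62.6 CPM or less in naïve P5 cells, far below the subunits. *Tsacc*, *Fam173b* and *B130034C11Rik*, which start within 126 bp of *Cct3*, *Cct5* and *Cct8* and share no exon base, had means of 6.82 CPM or less in naïve and primed cells, and none was called at P5. *Acat3* and *Usp16* overlap *Tcp1* and *Cct8* by 571 and 192 exon bases and were at 2.65 and 34.5 CPM in naïve P5. *Acat3* had log2 fold changes of 0.09 at P5, not called, and 1.29 at P15, called higher in primed cells. It was also called higher in primed P15 than in primed P5, by 1.22. *Usp16* had -0.18 and -0.23, neither called. Of 16 annotated pseudogenes of the subunits, 10 had an entry, of which 9 were at 0 in all libraries and *Gm5380*, a copy of *Cct7*, had at most 7 counts.

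Prefoldin and the phosducin-like cofactors, the partners of the chaperonin, were partly lower in primed cells. Of the 6 prefoldin subunits, 4 were lower and 1 was higher in primed cells at P5 (median -0.22), and 3 were lower and 1 was higher at P15 (median -0.18). Over all genes tested, 31.1% were called lower and 31.2% higher at P5, and 28.4% and 28.2% at P15. *Pfdn6* fell from 93.4 ± 1.4 to 59.1 ± 3.1 CPM at P5 (-0.63, adjusted p = 5.97e-12), *Pfdn1* by 0.24 and *Vbp1* by 0.20 on the log2 scale. With library size alone *Pfdn1* (-0.03) and *Vbp1* (-0.0018) were not called, and *Vbp1* also not without the second primed P5 library (-0.16). Of the phosducin-like cofactors, *Pdcl* had log2 fold changes of -0.17 at P5, which turned to 0.033 with library size alone and was not called by DESeq2 or without the first naïve (-0.17) or either primed library (-0.17 and -0.11), and of -0.34 at P15. *Pdcl3* had -0.06, which turned to 0.14 with library size alone, and -0.21, neither called. *Pdcl2* had 60 and 32 counts in naïve P5 and 12 and 7 in primed P5, and no count in primed P15 libraries. Of genes with a chaperonin-like fold outside the complex, *Mkks* was lower in primed cells at both passages (-0.82 and -0.68), whereas *Bbs10* (1.20 and 0.78) and *Bbs12* (1.40 and 1.10) were higher, all with means under 10 CPM. At P15 DESeq2 called none of the 3, and each failed without the second naïve library (-0.56, 0.60 and 0.55), as did *Mkks* without the first primed library (-0.59) and *Bbs10* without either (0.77 and 0.84). *Cct6b*, the paralogue of *Cct6a*, and *Cct8l1* had at most 15 counts in any library.

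Of the 14 actin and tubulin genes, whose products are the main clients of CCT, 9 were lower and 2 higher in primed cells at P5 (median -0.42), and 8 were lower and 2 higher at P15 (median -0.19). For this list and the tubulin cofactors below, the shares over all genes were 31.1% lower and 31.2% higher at P5. At P15 they were 28.4% and 28.2%. *Tubb2b* had log2 fold changes of -1.14 and -1.06, *Tubb3* of -2.31 and -2.22 and *Tuba4a* of -1.37 and -1.18. The 2 genes called higher at both passages were *Tubb4a* (2.69 and 3.38) and *Tuba1a* (0.38 and 0.60). Changes were smaller in 3 abundant genes, with means of 2374 to 2804 CPM in naïve P5. *Actb* had -0.22 and -0.35, both called, and *Actg1* had -0.05 and 0.01, neither called. *Tubb5* had -0.27, called, and 0.04, not called. Between primed P5 and primed P15, 12 of the 14 were called higher, where 22.4% of all genes were. Of 6 tubulin folding cofactors, which receive tubulin after CCT, 4 were lower and 1 higher at P5 and 2 were lower and 1 higher at P15. *Tbcb* fell by 0.70 on the log2 scale at P5 and *Tbcd* by 0.58, and *Tbca*, which binds beta-tubulin, rose by 0.35.

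Of 12 other clients, 5 were lower and none higher at P5, and 3 were lower and 4 higher at P15. Over all genes, 31.1% were called lower and 31.2% higher at P5, and 28.4% and 28.2% at P15. *Ccne1*, cyclin E1, had 235 ± 2 CPM in naïve P5 and 59.9 ± 0.4 CPM in primed P5 cells, a log2 fold change of -1.94, and the value at P15 was -1.75. *Cdc20*, the activator of the anaphase-promoting complex, had -0.75 and -0.64. *Plk1*, a mitotic kinase, was lower at P5 (-0.27, not called with library size alone) and higher at P15 (0.24), but not without the first (0.21) or the second (0.22) naïve library. *Wrap53*, whose product carries telomerase RNA to Cajal bodies and needs CCT to fold, had 429 and 456 counts in naïve P5 and 328 and 272 counts in primed P5. Its level was 21.9 ± 0.9 against 15.7 ± 0.9 CPM at P5, a log2 fold change of -0.45 with an adjusted p of 1.51e-04, which did not pass without the second primed P5 library (-0.37) or with library size alone (-0.25). At P15 it was 19.1 ± 1.5 against 20.9 ± 0.5 CPM, 0.12 with an adjusted p of 0.354. The difference between the passages was 0.59 with an adjusted p of 0.00185 in edgeR's interaction test. This value includes the P5 difference, and it was not examined under the alternatives.

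Other chaperone systems of the cytosol and mitochondria were lower in primed cells as well. Of 19 genes of the cytosolic HSP70 and HSP90 system, of which HSP70 passes clients to CCT, 16 were lower and 2 higher at P5 (median -0.69), and 12 were lower and 4 higher at P15 (median -0.38). *Hsp90aa1*, the inducible HSP90, had log2 fold changes of -1.47 and -1.39, and the small heat shock protein gene *Hspb1* had -1.80 and -1.93. Over all genes, 31.1% were called lower at P5 and 28.4% at P15. All 6 mitochondrial chaperone genes were lower at both passages, with medians of -0.83 and -0.54. Among these, *Hspd1*, which encodes the mitochondrial chaperonin HSP60, had -1.004 and -0.54, *Hspa9* had -1.12 and -0.99, and *Trap1* had -0.98 and -0.69. The median over the CCT subunits, -0.57 at P5 and -0.32 at P15, was nearer to 0 than that of these lists, and no test of the lists against each other was made.

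**Figure D4:**
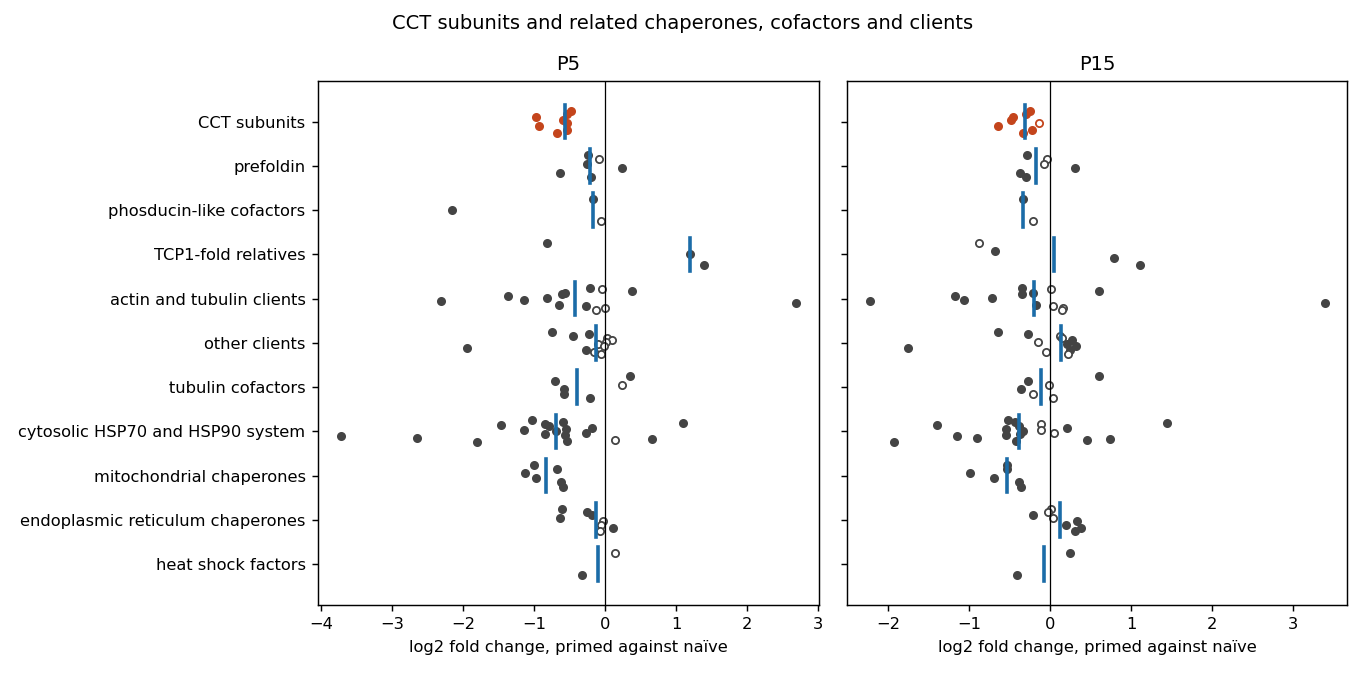
Log2 fold change of primed against naïve cells (horizontal axis) at P5 (left) and P15 (right) for the CCT subunits and the related gene lists, with a point per gene tested, filled where the adjusted p was under 0.01, and a blue line at the median of a list. All 8 CCT subunits and all 6 mitochondrial chaperones lie below 0 in both panels, while the other lists hold genes on both sides in at least 1 panel, apart from the phosducin-like cofactors, whose *Pdcl2* (no count in primed P15 libraries) is left out of the right panel but not of its list's median.

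The genes whose pattern lay closest to the mean of the 8 subunits were looked for among 10070 genes with a mean of at least 10 CPM. Likeness was the root mean square difference of centred log2(CPM + 1) over the 9 libraries, which share depth and scaling between genes. The 5 closest were *Polr2b*, a subunit of RNA polymerase II (0.038), *Bms1*, a ribosome assembly factor (0.039), *Eif2s1*, the alpha subunit of eIF2 (0.042), *Rae1*, an mRNA export factor (0.044), and *Wdr75*, a factor for ribosomal RNA transcription (0.047). The subunits themselves were at 0.050 (*Cct2*) to 0.163 (*Cct6a*) from their own mean. The 5 genes were picked as the smallest distances of 10070, whereas the subunits were not picked by distance. These ranges thus do not show that the 5 genes follow the complex more closely than its subunits. *Polr2b* had 165.5 ± 3.4 CPM in naïve P5, 106 ± 7 in primed P5, 165 ± 1 in naïve P15 and 131 ± 3 in primed P15 cells and 72.6 CPM in MEFs.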

How the data were processed

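The deposited counts per Ensembl gene were made by the authors from poly(A) RNA, with Cutadapt, HISAT2 (mm10, -k 20) and featureCounts. Strand, multi-mapped reads and the annotation release are not given in the sources used here. The conditions were read from the sample titles. Names came from GENCODE M21 (54079 of 54232 genes), and 92 spike-in entries held 0 counts. R 4.3.3, edgeR 4.0.16 and DESeq2 1.42.0 were used. Genes with at least 10 counts in at least 2 libraries were tested with TMM scaling and the quasi-likelihood F-test of edgeR, in 4 libraries at each passage and in all 8 for the passages and the interaction. P-values were adjusted by Benjamini-Hochberg over all genes tested, and genes were called at an adjusted p under 0.01. The SE is the log2 fold change over the square root of F. CPM were scaled over 9 libraries, and 3 counts, the limit for a gene at 0, equal 0.148 to 0.221 CPM in naïve and primed libraries (counting error only). Code was tested on simulated data. Named are all members, the 3 genes of each list with the smallest adjusted p at P5 (all of lists up to 5 genes), *Wrap53*, *Cct6b*, the 5 nearest genes, neighbours with starts within 1000 bases and pseudogenes with counts. *Acat3* and *Usp16* were named for overlap. *Tubb4a*, *Tuba1a*, *Actb*, *Actg1* and *Tubb5* were named outside these rules and were not examined under the alternatives below. The members and lists were chosen with earlier results of these data known. Alternatives were DESeq2, library size alone, no filter, a replicate block, feeder subtraction, other fits and each library left out. For single genes outside the complex, passage and interaction values were not examined under them.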

Additional observations from a re-analysis of the deposited data

Results flagged for a closer look

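In 7 of the 8 CCT subunits the difference between primed and naïve cells was itself different between P5 and P15 in the interaction test of edgeR, where 13.3% of all genes were called in that direction. The P15 minus P5 value on the log2 scale was 0.25 for *Tcp1*, 0.25 for *Cct2*, 0.54 for *Cct3*, 0.42 for *Cct5*, 0.30 for *Cct6a*, 0.33 for *Cct7* and 0.36 for *Cct8*. Adjusted p were between 1.83e-08 (*Cct3*) and 0.00103 (*Tcp1*). In each the primed libraries were nearer to the naïve ones at P15. With library size alone, or without the first primed P5 library, 4 of the 8 were called.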

How the results depend on the processing

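The number of subunits called lower stayed at 8 at P5 under every alternative run. Library size alone moved the median of all genes by 0.20 at P5, 0.10 at P15, -0.13 for the primed passages and -0.11 for the interaction. Under it the subunit medians were -0.36, -0.21, 0.19 and 0.20, 5 subunits were called lower at P15, and 4 were called in the interaction. With the feeder share subtracted the medians were -0.63 (P5), -0.30 (P15), 0.011 (naïve passages), 0.45 (primed passages) and 0.41 (interaction), and 1087 genes were called between the naïve passages (2009 without). DESeq2's size factors and its Wald test both gave -0.32 at P15, and no low-count filter gave -0.31 (P15), 0.35 (primed passages) and 0.34 (interaction). With each library left out in turn the medians were -0.62 to -0.52 (P5), -0.34 to -0.26 (P15), -0.033 to 0.00039 (naïve passages), 0.30 to 0.33 (primed passages) and 0.27 to 0.36 (interaction). Between 4 and 7 subunits were then called in the interaction, 4 without the first primed P5 library, and 1138 to 1529 genes were called between the naïve passages. A lone library was assumed to vary like the other groups.

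Signs turned in these values, of which only *Pdcl* had been called (-0.17). *Cct2* between the naïve passages gave 0.0026 with DESeq2's size factors and its Wald test, 0.0028 without a filter, 0.035 with feeder subtraction, 0.0039 in a fit of the 4 naïve libraries, and -0.021 to 0.0089 with libraries left out. With library size alone *Cct4* between the primed passages was -0.049, *Pdcl* and *Pdcl3* at P5 were 0.033 and 0.14, and *Hsp90b1* at P15 was 0.077. *Hspa5* at P15 was -0.027 with feeder subtraction. With libraries left out, *Calr*, *Hsp90b1* and *Hspa5* at P15 ranged from -0.032 to 0.061, -0.066 to 0.048 and -0.035 to 0.072.

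Whether same-numbered libraries were handled together is not known here. The deviations of first libraries from their group means correlated at 0.086 and 0.091 between passages of a state. Between the states the correlations were -0.12 to -0.042. With 2 libraries per group, these values cannot decide whether the numbers mark pairs. The replicate block gave subunit medians of -0.57 (P5) and -0.32 (P15) with 8 and 7 subunits called lower, and changed no call of a subunit. With crossed pairs at P15, an alternative added after seeing the data, 8 subunits and 9477 genes were called (8899 without a block). With at least 5698 counts per subunit and library, 2 libraries per group limit the precision.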

Other observations

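The inducible heat shock genes and the chaperones of the endoplasmic reticulum were on the lists beside the CCT subunits. *Hspa1a*, an inducible HSP70 gene, had 1701 and 1789 counts in naïve P5 and 128 and 116 in primed P5, and 265 and 309 in naïve P15 and 160 and 152 in primed P15. Its level was 86.5 ± 2.8, 6.40 ± 0.05, 19.6 ± 0.2 and 8.91 ± 0.39 CPM in the 4 groups (SD, n = 2), and the log2 fold change of naïve P15 against naïve P5 was -2.14 with an adjusted p of 4.08e-19. *Hspa1b*, its near-identical copy, and the HSP40 gene *Dnajb1* were lower in naïve P15 than in naïve P5 as well, by -1.52 and -0.69. Since reads can be split between *Hspa1a* and *Hspa1b*, their separate values are uncertain. No CCT subunit was called between the naïve passages. Of the heat shock factor genes, *Hsf1* had log2 fold changes of primed against naïve of 0.14 (not called) and 0.25 (called, but not by DESeq2 or without 3 of the 4 libraries in turn, 0.18 to 0.28), and *Hsf2* of -0.33 and -0.41. *Hspa1b* and *Dnajb1* were named after their values were seen.

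Of 8 chaperone genes of the endoplasmic reticulum, 4 were lower and 1 higher in primed cells at P5, and 1 was lower and 4 were higher at P15. Over all genes, 31.1% were called lower and 31.2% higher at P5, and 28.4% and 28.2% at P15. *Calr*, *Hspa5* and *Hsp90b1* were lower at P5, by 0.63, 0.61 and 0.26 on the log2 scale. Their values at P15 were 0.03, 0.01 and -0.03, and none was called. Between primed P5 and primed P15, 7 of the 8 were called higher, where 22.4% of all genes were.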
